A study of Mus musculus with 4 samples.

Results

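The genes described here encode homeodomain transcription factors of dorsal root ganglion sensory neurons, grouped as pan-sensory, and cofactors of the LIM homeodomain factors. The grouping is a name and does not say how many of the neurons hold each factor. They were chosen by symbol and not by any measured value. The 9 genes are the LIM homeodomain genes Isl1 and Isl2, the POU homeodomain genes Pou4f1, Pou4f2 and Pou4f3, the homeodomain genes Tlx3 and Prrxl1 (newer name Drgx), and the cofactor genes Ldb1 and Lmo4, whose products carry no homeodomain. All 9 were found among the 41388 genes listed, and all 9 had reads in every library and passed the filter on low counts.

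RNA was sequenced from cells with EGFP fluorescence, taken by FACS from ganglia at spinal levels T11 to S1 of C57BL/6 mice that carry an EGFP reporter of Ret, the receptor gene for ligands of the GDNF family. The genotype label reads Tg(Ret-EGFP)SJ/, whereas the design text describes heterozygotes with EGFP inserted at the Ret locus, so in that account every animal has 1 intact copy of Ret. There were 4 libraries, each from 1 animal: female A from 40 ganglia, and male A, male B and male C from 20 ganglia each. All carry the stage label P2 (postnatal day 2), but by the labels of the pools the ganglia of males B and C came from an embryo, and those of female A and male A from a P2 mouse. These are called the embryo pair and the P2-mouse pair, and a pair of values is given in the order female A, male A or male B, male C. No source used here says whether the pairs differ in age, in preparation or in both. No library of EGFP-negative cells was analysed here, so the levels describe the sorted population and not what sets it apart from the rest of the ganglion.

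Sensory neurons of the ganglion arise from neural crest progenitors. As they leave the cell cycle they switch on Isl1 and Pou4f1 (also known as Brn3a), which together end the expression of early neurogenic genes and start that of sensory neuron genes. LIM homeodomain proteins bind the adaptor encoded by Ldb1 or its relative Ldb2, which joins them into larger complexes on DNA, and LIM-only proteins such as that of Lmo4 compete for the same adaptor. Tlx3 and Prrxl1 act in ganglion and dorsal horn neurons of the pain pathway.

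Gene counts summed to between 17388493 (male A) and 28066448 (female A) per library. The libraries of a pair resembled each other (Pearson's r of log2 CPM across genes 0.991 and 0.986) more than those of different pairs (0.933 to 0.943). The 10 neuron markers all had counts in every library and summed to 7776 and 7232 CPM (the count scaled to a fixed library total) in the P2-mouse pair and to 12638 and 12377 in the embryo pair. Summed levels of Schwann cell and fibroblast markers lay the other way. The 13 Schwann cell markers summed to 4932 and 7834 CPM against 3015 and 3026, and the 10 fibroblast markers to 1529 and 1686 against 326 and 353. Satellite glia markers (8 genes) summed to between 534 and 964 CPM, endothelial and mural markers (8) to between 92.7 and 104, macrophage markers (8) to at most 7.36 and spinal motor neuron markers (5) to at most 11.6. Tissues that also express these factors left few reads. The 7 sympathetic neuron markers summed to at most 2.76 CPM in any library and the 6 dorsal horn markers to at most 0.855. The motor neuron genes Mnx1, Chat and Lhx3 and the dorsal horn genes Lbx1, Gad2 and Slc6a5 had no reads in any library.

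The closest sequence relation among the 9 genes is that of Pou4f1 and Pou4f2, and it bears on whether their reads can be told apart. Their transcripts share a run of 71 identical bases in the part of the coding sequence for the POU-specific domain, the longest identical run between any pair of the Pou4f genes. The run is shown in capitals with 21 bases of coding sequence on each side, 5′ to 3′ in the sense of the genes (GENCODE M21 transcripts, GRCm38, minus strand, chr14:104466033-104466145 for Pou4f1 and chr8:78435041-78435153 for Pou4f2, each within 1 exon).
Pou4f1: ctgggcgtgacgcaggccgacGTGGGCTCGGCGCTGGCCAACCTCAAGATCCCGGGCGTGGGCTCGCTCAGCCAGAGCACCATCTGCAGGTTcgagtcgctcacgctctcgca
Pou4f2: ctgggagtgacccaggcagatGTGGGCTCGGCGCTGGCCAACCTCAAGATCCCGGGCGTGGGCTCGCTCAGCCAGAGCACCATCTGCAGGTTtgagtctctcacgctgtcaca
Of all words of 50 bases in their transcripts, 0.498% were shared for Pou4f1 and 0.729% for Pou4f2. The longest identical runs were 41 bases between Pou4f1 and Pou4f3, 35 between Pou4f2 and Pou4f3 and 23 between Isl1 and Isl2, and no word of 50 bases was shared there. The paralogs thus had little sequence in which a read could belong to both. Ldb1 overlaps exons of Pprc1 on the opposite strand (2.75% of its words). No source used here gives the strand setting of the counting, so the level of Ldb1 is uncertain and reads of Ldb1 and Pprc1 in the overlap cannot be told apart.

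Many homeodomains bind a core of TAAT, read as ATTA on the other strand. Whether each of these factors prefers this core was not tested. In the 250 bases upstream of the annotated start sites (RefSeq, GRCm38.p6; 12 windows for 8 of the genes), Isl1 had 2 matches of this core and Tlx3 had 5. These windows are shown because those of Isl2, Pou4f1, Pou4f2, Prrxl1 and Lmo4 held no match, although the levels of Isl1 and Tlx3 lay far apart. Capitals mark TAAT or ATTA, bases in annotated exons were left out, and both genes lie on the minus strand (chr13:116309690-116309938 and chr11:33203590-33203838).
Isl1: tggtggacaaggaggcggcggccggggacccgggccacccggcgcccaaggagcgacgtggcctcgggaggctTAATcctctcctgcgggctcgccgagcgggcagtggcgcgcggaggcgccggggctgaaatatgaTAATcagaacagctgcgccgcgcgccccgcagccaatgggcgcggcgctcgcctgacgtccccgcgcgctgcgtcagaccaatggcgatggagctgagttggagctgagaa
Tlx3: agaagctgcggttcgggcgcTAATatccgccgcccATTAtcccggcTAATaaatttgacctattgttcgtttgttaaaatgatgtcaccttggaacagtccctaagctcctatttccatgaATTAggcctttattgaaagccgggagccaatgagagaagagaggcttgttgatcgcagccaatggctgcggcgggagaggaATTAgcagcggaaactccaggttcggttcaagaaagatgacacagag
Of 32817 promoter windows of the same length, 54.9% held at least 1 match, 30.8% at least 2 and 5.55% at least 5. The longer words TAATTA (both strands alike; it holds TAAT and ATTA) and ATAATTAAT or its complement ATTAATTAT, the letters used for the POU4 motif, occurred in 4.85% and 0.259% of all windows. Neither occurred in a window of the genes described. A further window, at an internal start site of Ldb1, had 2 matches of the core. The GC content of the windows was 71.2% for Isl1, 48.8% for Tlx3, 78% for Pou4f1 and 70.8% for Pou4f2.

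Pou4f1 and Isl1 were the most abundant of the 9 genes in every library. Levels between genes are compared as deposited RPKM (CPM per kilobase of exon length). Pou4f1 (ENSMUSG00000048349, chromosome 14, 104461676 to 104467999, GRCm38) stood at 187 and 160 RPKM in the P2-mouse pair and at 245 and 206 in the embryo pair, a mean of 199.5 ± 35.7 (SD, n = 4). It ranked between 236 and 336 of all genes listed by RPKM. Isl1 (ENSMUSG00000042258, chromosome 13, 116298281 to 116309689) stood at 144 and 148 RPKM in the P2-mouse pair and at 115 and 116 in the embryo pair (mean 131 ± 17.9). The ranges of these genes did not overlap, and Pou4f1 lay above Isl1 in 4 of 4 libraries.

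Isl2 (ENSMUSG00000032318, chromosome 9, 55538672 to 55546180), the paralog of Isl1, followed at 52.1 and 45.8 RPKM in the P2-mouse pair and at 59.8 and 68.9 in the embryo pair (mean 56.6 ± 9.98). Prrxl1 (ENSMUSG00000041730, chromosome 14, 32599407 to 32649246), a paired-type homeodomain gene of sensory neurons, had the steadiest level of the 9, at 45.6 and 43.4 RPKM and at 37.3 and 45.9 (mean 43.1 ± 3.98, coefficient of variation 9.23%). Isl2 lay above Prrxl1 in 4 of 4 libraries, but their ranges overlapped.

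The other Pou4f genes were far lower than Pou4f1. Pou4f3 (ENSMUSG00000024497, chromosome 18, 42394539 to 42397249), known for its role in hair cells of the inner ear, stood at 17.2, 13.1, 27.5 and 17.9 RPKM in female A, male A, male B and male C (mean 18.9 ± 6.09). Pou4f2 (ENSMUSG00000031688, chromosome 8, 78433010 to 78436645), known from retinal ganglion cells, stood at 10.9, 8.63, 5.12 and 5.74 RPKM (mean 7.60 ± 2.69). Per exon length, Pou4f1 made up between 86.9% and 89.7% of the summed Pou4f level, Pou4f3 between 7.18% and 9.90% and Pou4f2 between 1.84% and 5.09%. Pou4f1 was thus the main source of POU4 transcripts in all 4 libraries.

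Lmo4 (ENSMUSG00000028266, chromosome 3, 144188530 to 144205220), the LIM-only gene, stood at 20.9, 19.6, 8.11 and 13.9 RPKM in female A, male A, male B and male C (mean 15.6 ± 5.85). It lay above Pou4f3 in the P2-mouse pair and below it in the embryo pair, so the levels of these neighbours did not differ beyond their spread. The ranges of Lmo4 and Pou4f2 overlapped too, although Lmo4 lay higher in each of the 4 libraries. Ldb1 (ENSMUSG00000025223, chromosome 19, 46032593 to 46045214) was low and, given the overlap with Pprc1, uncertain, at 4.49, 3.58, 3.13 and 3.73 RPKM (mean 3.73 ± 0.569).

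Tlx3 (ENSMUSG00000040610, chromosome 11, 33200752 to 33203589), a homeodomain gene known from ganglion and dorsal horn neurons of the pain pathway, was the lowest. It had 34 and 15 reads in the P2-mouse pair and 32 and 28 in the embryo pair, or 0.790, 0.563, 0.921 and 0.733 RPKM (mean 0.752 ± 0.148). On the CPM scale the level was 1.21 (95% exact Poisson interval 0.839 to 1.69) and 0.863 (0.483 to 1.42) in the P2-mouse pair, and 1.41 (0.966 to 1.99) and 1.12 (0.747 to 1.63) in the embryo pair. These intervals cover counting error only, since the reads carry no molecular identifiers, and they overlap between all libraries. Of the genes grouped as pan-sensory, Tlx3 was therefore the exception by level, at under 1 RPKM in each of the 4 libraries. How many cells held it cannot be had from pooled cells.

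**Figure D1:**
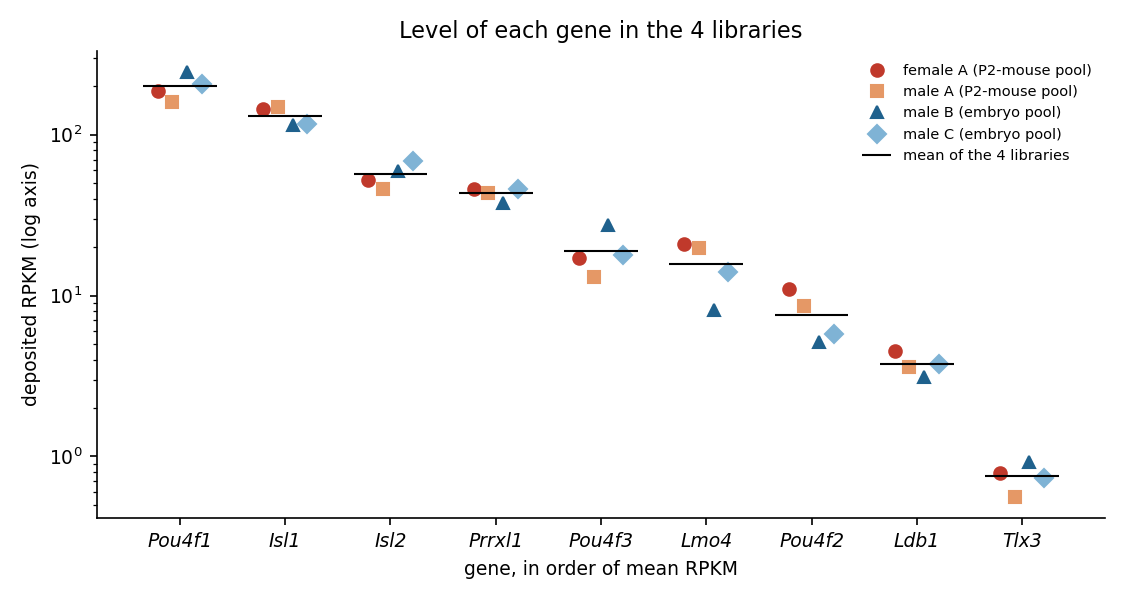
Deposited RPKM (log axis) of the 9 genes in each of the 4 libraries, with the mean of the 4 as a line; red and orange mark the P2-mouse pair, blue shades the embryo pair. Pou4f1 (mean 199.5) and Isl1 (131) stand highest and Tlx3 (0.752) lowest, and the pairs part visibly for Lmo4 and Pou4f2.

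The pools of cells labelled P2 mouse and embryo differed in part of this group. Lmo4 and Pou4f2 were higher in the P2-mouse pair, and Isl2, Pou4f1 and Pou4f3 were lower. The contrast holds 2 libraries on each side, and the female is in the P2-mouse pair. Each p-value sets the difference between the pairs against the spread within them, moderated over all genes. In the P2-mouse pair that spread lies between a female (40 ganglia) and a male (20). With edgeR (quasi-likelihood F test, Benjamini-Hochberg adjustment over 15568 genes) 2 of the 9 genes were called higher and 3 lower at an adjusted p under 0.05, 5 of 9 in all. Of all genes tested, 42.3% were called (22.3% higher and 20.0% lower), so the number called is near the background. The median log2 fold change of the 9 was -0.02, beside 0.02 over all genes. On the scale of CPM after TMM scaling, the levels of 7 of the 9 did not overlap between the pairs, beside 73.3% of all genes, the exceptions being Prrxl1 and Ldb1. For Tlx3 this holds on that scale only, since its deposited CPM and RPKM overlap.

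Pou4f1 had a log2 fold change of -0.49 (SE 0.11, adjusted p = 0.00926) between the P2-mouse and the embryo pair, 1.41-fold lower. Both libraries of the P2-mouse pair (832 and 725 CPM after TMM scaling) lay below both of the embryo pair (1191 and 1003). Fewer cells of a type and less RNA per cell cannot be told apart in such pools. The neuron markers moved the same way, with 8 of 10 lower and 1 higher (median log2 fold change -0.55), while 11 of 13 Schwann cell and 6 of 9 tested fibroblast markers were higher; their part in the changes of Pou4f1 and the other genes was not tested. The fall of Pou4f1 passed the test with sex as a term (-0.60, adjusted p = 0.0426) and with offsets for GC content and transcript length (-0.58, adjusted p = 0.00539), but not without male A (-0.39, SE 0.14, adjusted p = 0.0975).

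Pou4f3 fell by 0.70 on the log2 scale (SE 0.22, adjusted p = 0.0370). Male B, at 67.4 CPM after TMM scaling, lay well above male C at 44.0, and the gap of 0.62 (log2) between them was close to the difference between the pairs. The call of Pou4f3 was lost with sex as a term (-0.90, adjusted p = 0.0857), under the offsets (-0.36, adjusted p = 0.257) and without female A (-0.90), male A (-0.52) or male B (-0.36), and it was -1.01 and called without male C. Pou4f2 rose by 0.74 (SE 0.17, adjusted p = 0.00978), with 33.4 and 26.8 CPM in the P2-mouse pair and 17.1 and 19.1 in the embryo pair. Under the offsets it stood at 0.83 and was called (adjusted p = 0.00557), and with sex as a term at 0.56 (adjusted p = 0.105) or without female A at 0.57 and was not. The Pou4f paralogs thus differed in direction. The RPKM ratio of Pou4f3 to Pou4f2 was 1.58 and 1.51 in female A and male A and 5.36 and 3.12 in male B and male C. The difference in this ratio was not tested.

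**Figure D2:**
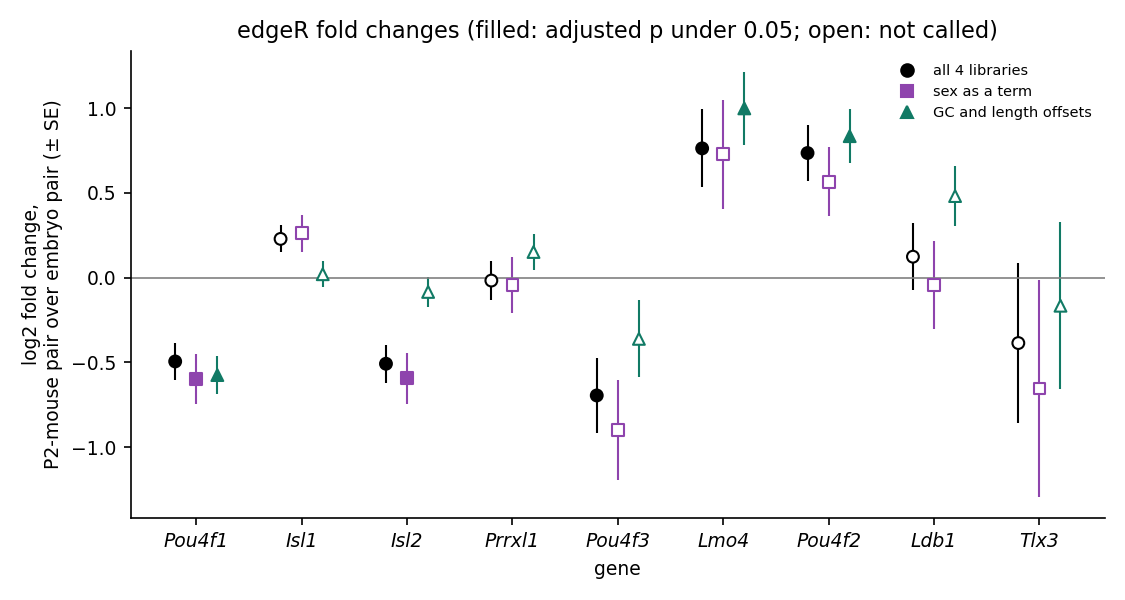
log2 fold change (± SE, edgeR) of the P2-mouse pair over the embryo pair for the 9 genes, in the fit of all 4 libraries, with sex as a term, and with offsets for GC content and transcript length; filled symbols passed an adjusted p of 0.05. Pou4f1 is filled in all 3 fits, Isl2 in the first and the sex fit, Lmo4 and Pou4f2 in the first and the offset fit, and Pou4f3 in the first alone.

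Of the LIM homeodomain paralogs, Isl2 was called lower and Isl1 was not called, and the difference between them was not tested. Isl1 stood at 544 and 569 CPM after TMM scaling in female A and male A and at 472 and 478 in male B and male C. Its log2 fold change of 0.23 (SE 0.080) just missed the threshold (adjusted p = 0.0520), and under the offsets for GC and length it was 0.02 (adjusted p = 0.867). Isl2 fell by 0.51 (SE 0.11, adjusted p = 0.00861), from 136 and 157 CPM in the embryo pair to 109 and 97.2 in the P2-mouse pair. With sex as a term Isl2 stood at -0.59 (adjusted p = 0.0446), but under the offsets at -0.08 (SE 0.088, adjusted p = 0.499), and it was not called without male A (-0.42). Isl1 made up 73.4% and 76.4% of the summed Isl level per length in the P2-mouse pair and 65.7% and 62.7% in the embryo pair. The sum itself varied little, between 174 and 196 RPKM. Pou4f1 was 1.30 and 1.08 times the level of Isl1 per length in female A and male A and 2.14 and 1.78 times in male B and male C. These shares and ratios are descriptions with no test.

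**Figure D3:**
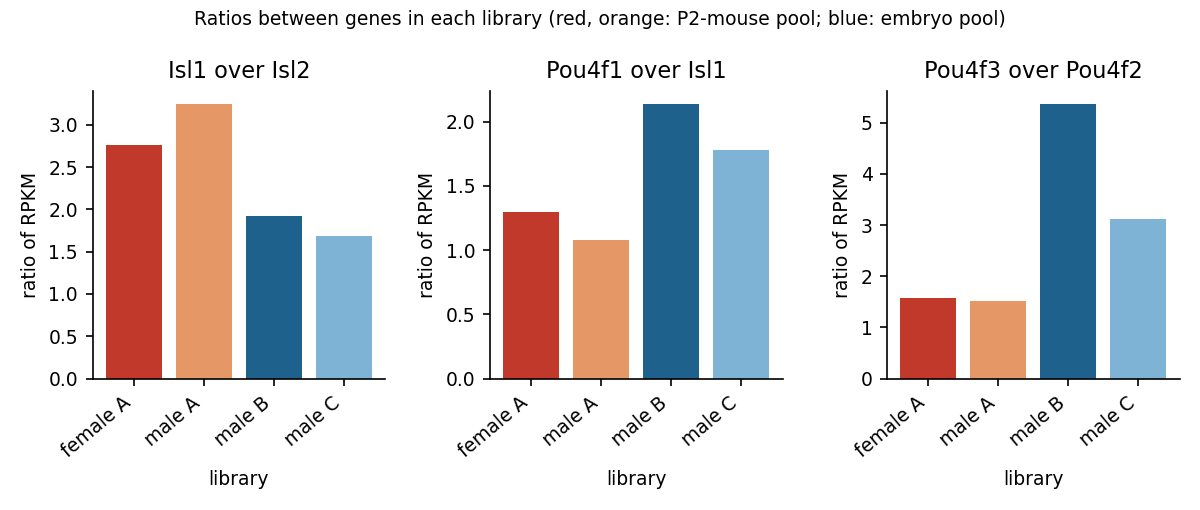
RPKM ratios of Isl1 to Isl2, Pou4f1 to Isl1 and Pou4f3 to Pou4f2 in each library, as bars from 0 (red and orange the P2-mouse pair, blue shades the embryo pair). The pairs do not overlap in any of the 3 ratios, with Isl1 over Isl2 at 2.76 and 3.24 in the P2-mouse pair and 1.92 and 1.68 in the embryo pair. Single genes did not overlap between the pairs in 73.3% of all genes tested (CPM after TMM scaling). Some ratios not shown did overlap, such as that of Prrxl1 to Tlx3.

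The fold changes between the pairs ran with the base composition of the transcripts, which touches these calls. Across 15474 genes, which are not independent replicates, Spearman's rho of the log2 fold change with GC content was -0.444 and with transcript length 0.275. Isl2, with a GC content of 60.0%, lay above 96.4% of the genes tested, Tlx3 (67.3%) above 99.9% and Ldb1 (57.9%) above 91.2%. Isl1 (45.7%) lay above 29.7%. Pou4f1 (49.8%) and Pou4f2 (50.5%) were nearer the middle, against a median of 49.3%, while Pou4f3 (53.7%) lay above 73.3% of the genes. With the offsets, 3 of the 9 genes were called (Lmo4 and Pou4f2 higher, Pou4f1 lower), beside 33.3% of all genes. The offsets also shifted the balance of all calls, from 3472 higher and 3112 lower to 1917 and 3231.

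**Figure D4:**
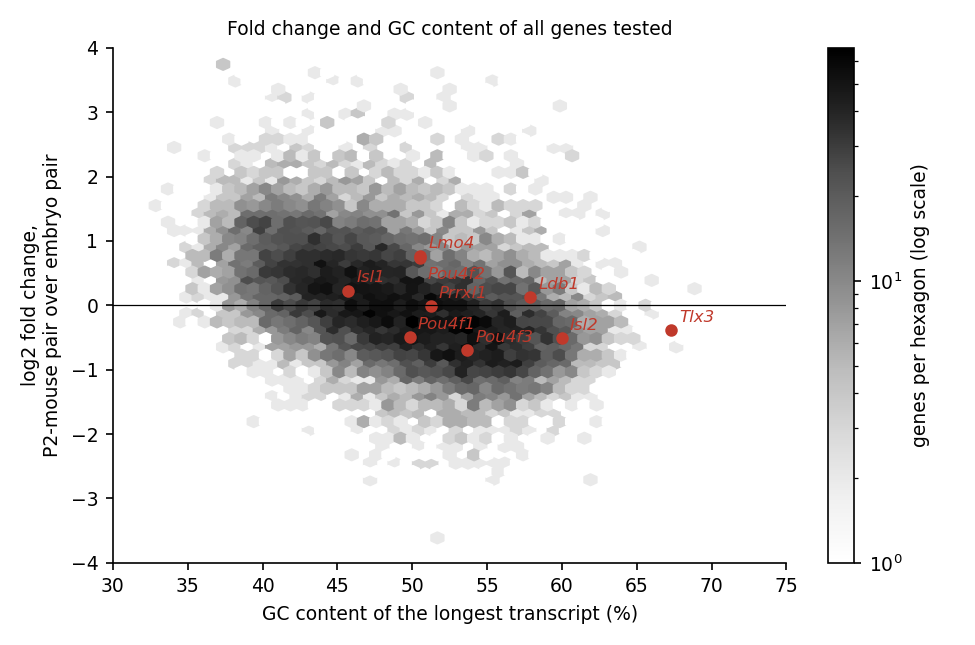
log2 fold change of the P2-mouse pair over the embryo pair against the GC content of each gene's longest transcript (%), for all genes tested with a GC value (grey hexagons, log colour scale) and the 9 genes (red). The cloud slopes downward (rho -0.444); Isl2 (60.0%) and Tlx3 (67.3%) lie at its GC-rich end, and Lmo4 and Pou4f2 (50.5% each) above its centre.

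Among the cofactors, Lmo4 was higher in the P2-mouse pair by 0.76 (log2; SE 0.23, adjusted p = 0.0305). Its levels were 65.6 and 62.6 CPM after TMM scaling in the P2-mouse pair and 27.8 and 47.7 in the embryo pair. The gap between male B and male C (0.78, log2) was about as large as the difference between the pairs, although the pairs did not overlap. Under the offsets Lmo4 stood at 1.00 (adjusted p = 0.00881), and with sex as a term at 0.73 with no call (adjusted p = 0.164). Its value was 0.41 without male B and 1.16 without male C, called in both, and 0.73 without female A and 0.80 without male A, called in neither. Ldb1 did not pass the test (0.12, SE 0.20, adjusted p = 0.655), nor did Prrxl1 (-0.02, SE 0.12, adjusted p = 0.918) or Tlx3 (-0.39, SE 0.47, adjusted p = 0.544). Under the offsets Ldb1 stood higher, at 0.48 (SE 0.18, adjusted p = 0.0707), and was still not called. For Tlx3, with at most 34 reads in a library, the SE exceeded the fold change, so a difference of this size could not be detected. Larger changes did pass in genes with fewer reads, such as Pou2f1 (2.49).

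With sex as a term the comparison sets male A against male B and male C with 1 residual degree of freedom. It called 2 of the 9 genes (Isl2 and Pou4f1, both lower), beside 23.6% of all genes. Without female A the same 2 were called, beside 24.9%, and without male A 1 was called (Pou4f2, 0.89), beside 22.1%. Pou4f1 alone of the 9 was called in the fit of all 4 libraries, with sex as a term and with the offsets.

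The series pairs male with female ganglia, and none of the 9 genes was called between them. With the same test over 16708 genes 0 of the 9 were called (0 at an unadjusted p under 0.05), beside 0.00% of all genes (129 at an unadjusted p under 0.05). DESeq2 called 0 of the 9 as well, beside 0.0299% of all genes, and limma-voom 0, beside 0.00%. The log2 fold changes of the female over the males ran from -0.28 for Pou4f3 (SE 0.52) to 0.67 for Pou4f2 (SE 0.40), with adjusted p between 0.951 and 0.998. The female lay outside the male range for 3 of the 9 (Pou4f2, Ldb1 and Lmo4, above it in each), beside 44.1% of all genes. The test takes the spread of the female to be that of the males, which includes any difference between male A and the embryo pair. With the pool description as a term, which sets female A against male A, the values ran from -0.06 for Isl1 to 0.47 for Tlx3. These values do not show that the 9 genes are equal in the sexes.

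By deposited RPKM, the adaptor that LIM homeodomain proteins need was measured almost wholly as transcripts of Ldb2. This relative of Ldb1 stood at 415 and 360.5 RPKM in the P2-mouse pair and at 318 and 299 in the embryo pair, between 80.2 and 102 times the level of Ldb1 in the same library. It exceeded the summed level of Isl1 and Isl2 by a factor of 1.62 to 2.12. No word of 50 bases of Ldb2 was shared with another gene. The level of Ldb1 is uncertain, given the overlap with Pprc1, and so is the ratio of Ldb2 to Ldb1. Ldb2 itself was not called between the pairs (0.21, SE 0.091, adjusted p = 0.0976). Of the 8 genes in the list of LIM cofactors and adaptors (Ldb1 and Lmo4 not counted), 1 rose and 2 fell. Of all genes tested, 22.3% were called higher and 20.0% lower, so these counts do not set the list apart. Its median log2 fold change was -0.46, beside 0.02 over all genes. Rlim, which encodes a ubiquitin ligase that acts on the LDB adaptors, rose by 1.70 (SE 0.099, adjusted p = 0.000112), from 6.92 and 7.67 RPKM in male B and male C to 25.5 and 25.8 in female A and male A. Ssbp3, whose single-stranded DNA-binding product stabilises those adaptors, fell by 0.76 (SE 0.084, adjusted p = 0.000439). Both calls were kept with the offsets, where Rlim stood at 0.76 and Ssbp3 at -0.46. Lmo3, with between 23 and 130 reads, fell by 2.20 (SE 0.41, adjusted p = 0.00407), a call lost with sex as a term (adjusted p = 0.0638). Lmo4 made up 92.5% and 88.3% of the summed Lmo1 to Lmo4 level per length in female A and male A and 71.8% and 79.7% in male B and male C.

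Other LIM homeodomain genes had few reads or none. Of the 10 listed, Lhx2, Lhx3, Lhx5 and Lhx8 had no reads in any library, where a count of 0 allows up to 0.173 CPM at the depth of male A and 0.107 at that of female A. The 2 that could be tested, Lhx6 and Lhx4, had means of 0.108 and 0.0330 RPKM and were not called. Isl1 and Isl2 therefore accounted for nearly all transcripts of the LIM homeodomain genes listed. Of the 11 other POU genes, 6 could be tested, of which 3 rose and 1 fell, beside 22.3% higher and 20.0% lower over all genes. Pou3f1, the gene of the Schwann cell factor Oct6, rose by 4.31 (SE 0.28, adjusted p = 0.000135) and Pou3f2 by 2.83 (SE 0.31, adjusted p = 0.000447); Pou3f1 is itself 1 of the 11 Schwann cell markers called higher. Pou2f1 (15, 19, 4 and 2 reads) rose and was not called with sex as a term. Pou6f1, the most abundant of the list at a mean of 3.51 RPKM, was not called (-0.34, SE 0.19).

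Other homeodomain genes and sensory neuron factors moved in both directions. Among 12 tested relatives (16 listed), Zfhx4 (1.12) and Six4 (0.60) rose and Cux2 fell (-1.37, SE 0.23, adjusted p = 0.00281). Under the offsets Zfhx4 (0.37) and Six4 (-0.04) were not called, and with sex as a term Six4 was not. The most abundant, Zfhx3, had a mean of 26.7 RPKM and was not called (-0.17, SE 0.12), but was called lower with the offsets (-0.42, adjusted p = 0.00902). Of 12 tested factors from the list of other sensory neuron genes (14 listed), Zeb2 (1.85) and Sox4 (0.78) rose and Insm2 fell (-0.63); Sox4 was not called with sex as a term, nor Insm2 under the offsets. Klf7, which works with Pou4f1 at the TrkA gene, stood at a mean of 80.1 RPKM and was not called (-0.06, SE 0.098). With the offsets it was called lower at -0.70 (adjusted p = 0.00110). Ebf1, at a mean of 67.9 RPKM, did not pass either (0.29, SE 0.13) and was called lower with the offsets (-0.43, adjusted p = 0.0357).

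Genes known from mouse mutants to depend on Isl1, Pou4f1, Tlx3 or Prrxl1 in sensory ganglia were mostly lower in the P2-mouse pair. Of the 16, 11 fell and 1 rose, with a median log2 fold change of -0.92 beside 0.02 over all genes, of which 20.0% were called lower and 22.3% higher. The neuron markers fell with them (8 of 10 lower, 1 higher), and their part in this was not tested. The list was put together with earlier results of these data known, so its direction is no independent evidence. Calca, the CGRP gene, fell by 1.28 (SE 0.078, adjusted p = 0.000130) and Gal, the galanin gene, by 1.52 (SE 0.095, adjusted p = 0.000134). Trpm8, the cold receptor gene, fell by 1.16 (SE 0.29, adjusted p = 0.0143). Runx1, a runt factor of nociceptors, rose by 0.46 (SE 0.10, adjusted p = 0.00824) and stood at -0.01 with the offsets, where 13 of the 16 genes were lower and 0 higher, beside 33.3% of all genes called in either direction. Runx3, a runt factor of proprioceptors, had 2 and 0 reads in the P2-mouse pair and 15 and 26 in the embryo pair. With sex as a term 10 of the 16 were lower, beside 23.6% of all genes called in either direction.

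Of the early neurogenic genes that Isl1 and Pou4f1 are known to hold down, reads were few. Of the 8 listed, Neurog1, Neurod2 and Hand1 had no reads in any library, and 2 could be tested. Neurod1, with between 55 and 92 reads, was not called (-0.16, SE 0.37). Msc fell by 1.68 (SE 0.31, adjusted p = 0.00391), with 46 and 41 reads in the P2-mouse pair and 136 and 141 in the embryo pair, and was not called with sex as a term (adjusted p = 0.0555).

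**Figure D5:**
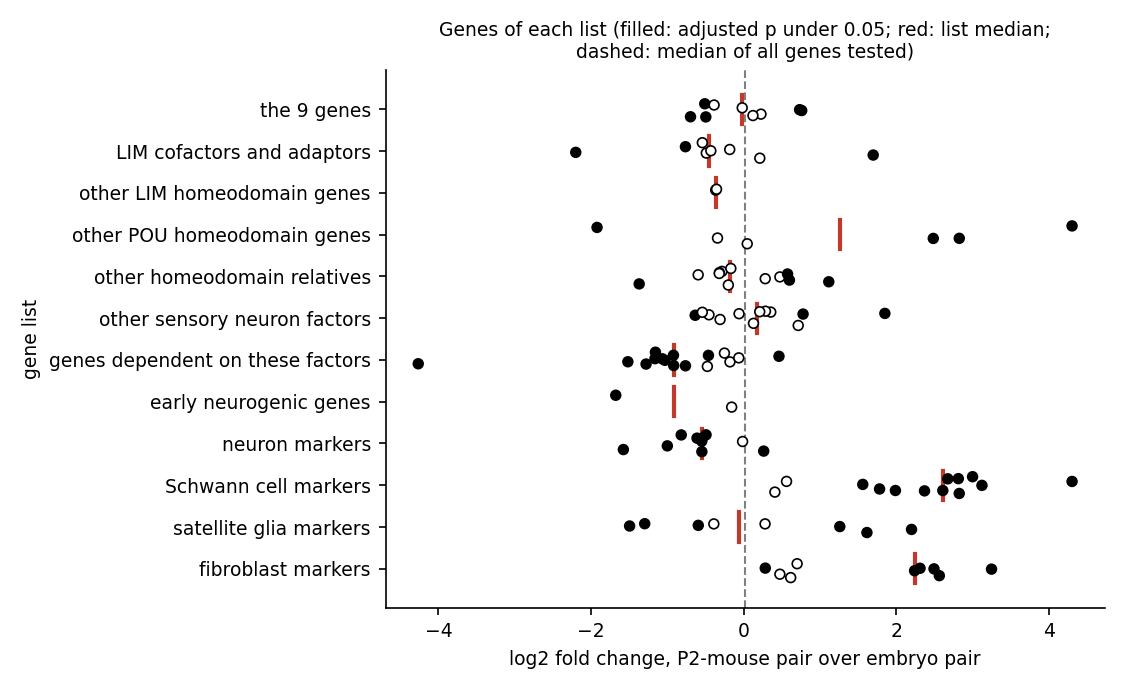
log2 fold change of the P2-mouse pair over the embryo pair for the tested genes of each list (points, filled where the adjusted p was under 0.05), with the list median in red and the median of all genes (0.02) dashed. The 9 genes spread to both sides of 0 with a median of -0.02, the dependent genes lie mostly below 0 (median -0.92), and Schwann cell (2.61) and fibroblast markers (2.24) lie above it.

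Genes whose levels followed those of Isl1 and Pou4f1 most closely over the 4 libraries were sought among 10418 genes with a mean of at least 5 CPM. Likeness was the root mean square difference of log2 CPM, each gene centred on its own mean. For Isl1 the closest were Cab39l (0.0080), Paip2 (0.0094) and Psmd12 (0.0154). For Pou4f1 they were Hoxa10 (0.0147), Wasf1 (0.0174) and Sap130 (0.0174). Hoxa10, a homeobox gene of axial position, stood at 29.3, 25.5, 39.5 and 32.5 CPM in female A and the 3 males in turn. Its order of libraries was that of Pou4f1, which follows from the choice by likeness. These are descriptions over 4 libraries that share their depth and preparation with every gene compared.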

How the data were processed

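RNA from sorted Ret-EGFP-positive cells was measured in 4 libraries. The deposited counts are reads assigned to genes; the submitters' processing notes name featureCounts 1.4.5 (Subread) and GRCm38.p2. From them the authors made CPM (scaled to the library's gene total) and RPKM (CPM per kilobase of exon), as recomputed here from the deposited values. No source used here names the aligner, annotation release or strand setting. Symbols, GC content and transcript lengths came from GENCODE M21 (97.3% of IDs matched), promoters from RefSeq. The fits used edgeR 4.0.16 in R 4.3.3 (quasi-likelihood F test, TMM, filterByExpr with minimum count 10 and total 15, Benjamini-Hochberg at 0.05). The code was also run on simulated counts with the same fixed dispersion for both comparisons. That run does not give the error rate of either test in these data. The TMM factors lay between 0.959 and 1.05. Alternatives were relative log expression factors, a filter at a mean of 5 CPM, no filter, DESeq2 1.42.0, limma-voom (limma 3.58.1), each library left out, the other factor as a term, and GC and length offsets (mgcv 1.9.3). Named genes were the 9, and per list the 2 most abundant and up to 4 called per direction with the largest change. The genes and lists were chosen with earlier results of these data known. Some genes of the lists are not reported here.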

Additional observations from a re-analysis of the deposited data

How the results depend on the processing

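Each comparison was recomputed under 11 alternatives for the pairs and 10 for the sexes, since no test between the sexes was possible without the female. Between the pairs, the calls among the 9 genes (2 higher, 3 lower) became 0 and 2 with sex as a term and 2 and 1 with the GC and length offsets. With a library left out they ran from 0 to 2 higher and from 0 to 3 lower, being 0 and 2 without female A, 1 and 0 without male A. The counts over all genes became 2064 and 1615 with sex as a term and 1917 and 3231 with the offsets, and with a library left out ran from 1935 to 3630 higher and from 1681 to 3311 lower. Isl1 was called higher with a mean of at least 5 CPM (0.25) and by limma-voom (0.23).

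Prrxl1, not called between the pairs, changed sign with the 5 CPM filter (0.0012), the offsets (0.15), without male A (0.01) and without male C (0.10; lowest value with a library left out -0.17), and Ldb1 with sex as a term (-0.04), without female A (-0.04) and without male B (-0.01; highest with a library left out 0.27). Between the sexes, 1 gene was called higher and 1 lower with no filter, 1 and 4 by DESeq2, 0 and 4 with the pool as a term, and 0 and 4 with the offsets. With a male left out the counts ran from 1 to 1935 higher and from 4 to 1681 lower, and from 0 to 1 of the 9 genes were called higher (Pou4f2, 0.89, without male A, where the sexes and the pools fall together). Uncalled values changed sign with the pool as a term for Isl1 (-0.06), Isl2 (0.17), Pou4f1 (0.20), Pou4f3 (0.38) and Tlx3 (0.47). Others did so with the offsets for Isl1 (-0.01), by limma-voom for Tlx3 (0.0028), with relative log expression factors (-0.00023) and DESeq2 (-0.00024) for Prrxl1, and without male B for Pou4f3 (0.07; lowest with a male left out -0.52), Tlx3 (0.20; lowest -0.18) and Prrxl1 (-0.04). The cause was not tested. Mean RPKM of the 9 genes moved by less than 1 SD under all 5 alternatives, an outcome fixed in advance. Leaving out 1 of 4 values cannot move their mean by 1 SD, and the TMM factors lay too near 1 to do so. It is therefore no evidence that the levels are stable. No paired analysis was possible because the labels match no library of a group with a library of the other, and the letters are names only. Precision is limited by 2 libraries a side and, for Tlx3, by 15 to 34 reads.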
